A study of Mus musculus with 9 samples.

Results

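The 10 genes described here act in the fusion, the fission and the genome maintenance of mitochondria. They were taken by name, with earlier results of these data known. Mfn1, Mfn2 and Opa1 stand for fusion, and Dnm1l, Fis1 and Mff for fission. Tfam, Polg and Polg2 stand for the mitochondrial genome, and Rmnd1 for translation inside the organelle. All 10 were found among the 24736 genes of the count tables, and all 10 were among the 13890 genes with enough counts to be tested. Their RNA was measured by sequencing in 9 libraries of ovulated mouse oocytes at metaphase II, 15 oocytes per library and 1 library per mouse. The mice were ICR females, with an age of 4 to 5 weeks on the labels, and formed 3 groups of 3. KYZY mice went through 6 weeks of a chronic unpredictable mild stress model, with a daily stressor, and were then gavaged with 0.1 ml per day of a decoction of the herbal recipe Kai Yu Zhong Yu for 4 weeks. Stress mice went through the 6 weeks of stressors and were given no recipe. Control mice were given neither. Mice that went through 6 weeks of stressors cannot have been 4 to 5 weeks old when their oocytes were taken. Mice of every group were induced to ovulate with 7.5 IU of PMSG and 7.5 IU of hCG, and their oocytes were taken 16 hours after hCG and freed of cumulus cells with hyaluronidase. The labels describe no group gavaged with vehicle, so the recipe, the gavage and the 4 further weeks cannot be told apart.

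Mitochondria fuse and divide continuously, and the balance sets whether they form a network or separate bodies. The mitofusins Mfn1 and Mfn2 are GTPases that join outer membranes, and Opa1 is the GTPase that joins inner membranes and holds the cristae together. Dnm1l, better known as Drp1, is the dynamin that constricts mitochondria from the cytosol, and Mff and Fis1 are outer membrane proteins, of which Mff is a main receptor for Drp1. Tfam packages the mitochondrial genome and takes part in its transcription, and Polg and Polg2 are the catalytic and the accessory subunit of its DNA polymerase. Rmnd1 is an inner membrane protein that, in human cells, anchors the mitochondrial ribosome near the site where its messages mature. The oocyte carries the mitochondria that the embryo inherits, its mitochondria are small and round, and the fully grown oocyte works largely from RNA stored during growth.

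The sequences before the starts of Rmnd1, Opa1 and Mfn1 are shown because Rmnd1 and Opa1 were the members whose stress libraries lay apart from those of the other groups as scaled here, and Mfn1 was the fusion gene of highest level. Each line holds the 250 bases before the RefSeq start on GRCm38.p6, written 5′ to 3′ on the strand of the gene. Rmnd1 is read from the minus strand at chr10:4432389-4432638, Opa1 from the plus strand at chr16:29579084-29579333, and Mfn1 from the plus strand at chr3:32529232-32529481. Capitals mark an E-box (CACGTG), the core of the site of nuclear respiratory factor 1 (CGCATGCG) or an ETS site (CCGGAAGT).

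Rmnd1: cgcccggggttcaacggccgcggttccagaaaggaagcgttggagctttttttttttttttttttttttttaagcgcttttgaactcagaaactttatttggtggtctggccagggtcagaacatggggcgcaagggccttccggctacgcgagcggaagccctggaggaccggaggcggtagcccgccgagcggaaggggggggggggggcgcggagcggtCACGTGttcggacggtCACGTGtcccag

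Opa1: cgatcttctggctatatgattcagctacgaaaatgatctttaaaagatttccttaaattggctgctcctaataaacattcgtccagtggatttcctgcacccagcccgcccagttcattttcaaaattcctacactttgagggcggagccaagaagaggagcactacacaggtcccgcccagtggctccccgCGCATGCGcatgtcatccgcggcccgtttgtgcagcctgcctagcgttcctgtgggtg

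Mfn1: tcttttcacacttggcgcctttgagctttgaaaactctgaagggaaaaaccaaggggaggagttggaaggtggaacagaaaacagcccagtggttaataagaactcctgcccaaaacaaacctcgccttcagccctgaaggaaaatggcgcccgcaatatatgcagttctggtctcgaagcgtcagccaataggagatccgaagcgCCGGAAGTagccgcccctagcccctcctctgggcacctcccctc

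The E-boxes of Rmnd1 began 28 and 12 bases before its start, the core site of Opa1 began 58 bases before, and the ETS site of Mfn1 began 44 bases before. The motifs were chosen after these sequences were seen and were searched on both strands. An E-box stood in the windows of 6.86% of 27025 genes, and Rmnd1 was the only member to hold one. The nuclear respiratory factor 1 core stood in 1.75% of genes, and Opa1 was the only member with it. The ETS site stood in 3.23% of genes and in 4 of the 10 members, Mfn1, Fis1, Polg and Tfam. A match describes these letters and is not evidence of binding.

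The libraries held 46324094 to 106990821 counts, and 13257 to 15802 genes had a value above 0. Levels are given as CPM, the usual measure of a gene's count relative to its library total, with totals scaled by edgeR's TMM method, the trimmed mean of M values. Oocyte RNA dominated every library: the 20 oocyte markers had a mean score, on the log2(CPM + 1) scale, of 8.76 to 9.33. The score of cumulus and granulosa cell markers, 32 of 34 detected, differed between libraries. In the order of replicates 1, 2 and 3 it was 0.72, 2.38 and 2.26 for KYZY, 0.56, 0.81 and 1.50 for stress, and 0.52, 0.77 and 1.78 for control. KYZY 2, KYZY 3, stress 3 and control 3 are called the 4 high-marker libraries below. The summed level of the list was 82.66 to 769.9 CPM in KYZY, 78.49 to 173.5 CPM in stress and 73.71 to 427.9 CPM in control libraries. Tnfaip6, which binds hyaluronan in the matrix between cumulus cells, had 16.5, 10.4, 5.14 and 1.94 CPM in KYZY 2, KYZY 3, stress 3 and control 3 and was at 0 in the other 5 libraries. Other markers did not set stress 3 apart. Cyp11a1, the side-chain cleavage enzyme, was at 165, 428 and 228 CPM in KYZY 2, KYZY 3 and control 3 and at 14.7 CPM in stress 3, beside 10.6 CPM in stress 2 and 8.76 CPM in control 2. Star, the cholesterol transporter, was at 0.373 CPM in stress 3, below 3.54 CPM in stress 2 and 2.07 CPM in control 2. These 3 genes were chosen after their values were seen. Markers of other cells were also uneven. The stroma and endothelium score was 2.62 in KYZY 3 and 2.31 in control 3 and 0.46 to 1.15 in the other libraries, and the oviduct score was 1.94 and 1.68 in the same 2 libraries and 0.96 to 1.24 in the others. The blood and immune score was 1.28 in KYZY 2, 0.88 in KYZY 3 and 0.75 in control 3 and 0.17 to 0.37 in the others. The protocols name an Illumina cBot cluster kit for the stress and control samples and an Illumina NovaSeq for the KYZY samples, so a difference of instrument cannot be told apart from the KYZY group.

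The levels of the 10 genes spanned from among the most abundant transcripts of the oocyte to the limit of detection. Per kilobase of annotated exon, Mff was highest at 49.1 ± 15.4 CPM per kb (SD, n = 9), followed by Dnm1l at 20.3 ± 2.30 and Mfn1 at 7.32 ± 2.40 CPM per kb. Opa1 averaged 2.96 ± 0.563, Mfn2 2.60 ± 0.570 and Fis1 2.60 ± 1.65 CPM per kb. Tfam averaged 0.751 ± 0.110 and Polg 0.703 ± 0.129 CPM per kb, while Rmnd1 averaged 0.181 ± 0.115 and Polg2 0.0306 ± 0.0247 CPM per kb. The fission gene Mff and its partner Dnm1l therefore lay above every fusion gene in all 9 libraries. The 9-library ranges of the neighbours Opa1 and Mfn2, Mfn2 and Fis1, Tfam and Polg, and Rmnd1 and Polg2 overlapped, although Rmnd1 exceeded Polg2 within each of the 9 libraries. The other neighbours did not overlap. With the length of the longest coding transcript in place of all exons, Fis1 came above Opa1 and Mfn2, and Polg above Tfam. Among all genes tested, the mean level of Mff lay at percentile 97.6, that of Dnm1l at 91.1, that of Mfn1 at 83.1, that of Tfam at 46.9, that of Rmnd1 at 30.6 and that of Polg2 at 4.0, in CPM without a correction for length.

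**Figure D1:**
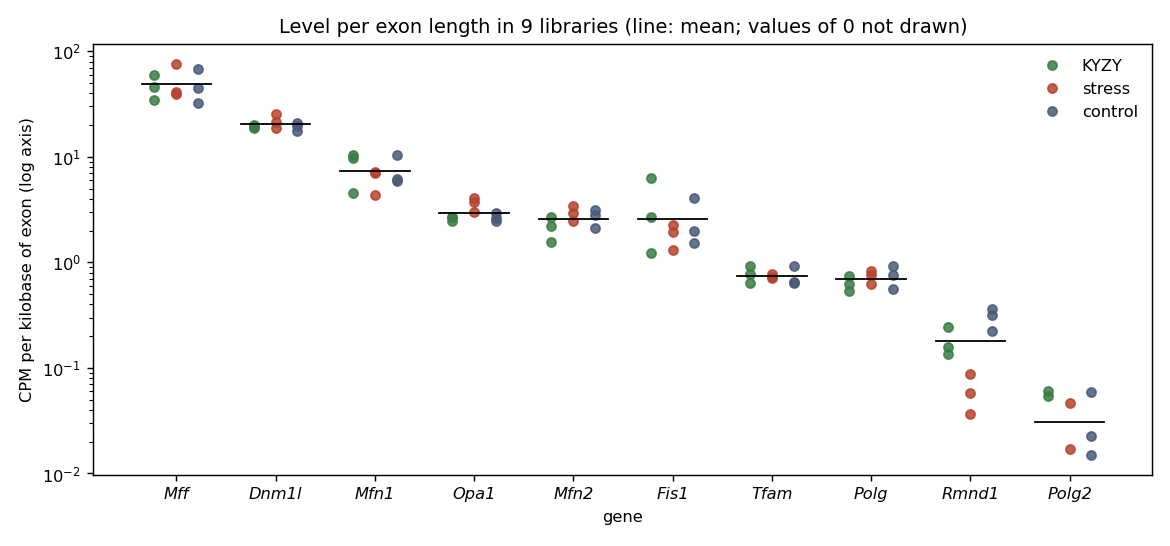
Level of each gene in CPM per kilobase of exon (log axis), with 1 point per library, colours for the KYZY, stress and control groups and a line at the mean of 9 libraries. Mff lies at 32.6 to 76.5 CPM per kb and Dnm1l at 17.6 to 25.5, above Mfn1 at 4.32 to 10.5, and Polg2 lies between 0 and 0.0609, with its values of 0 not drawn.

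The groups were compared to ask whether stress was accompanied by a different supply of these transcripts and whether oocytes of KYZY mice differed from those of stress mice. By edgeR's quasi-likelihood test, with Benjamini-Hochberg adjustment over 13890 genes, 0 of the 10 members had an adjusted p under 0.05 in any comparison. The same test called 0% of all genes in stress against control, 0% in KYZY against stress, 0% in KYZY against control and 0% for any difference among the groups. In stress against control 2 members, Opa1 and Rmnd1, had an unadjusted p under 0.05, against 2.69% of all genes, and their groups did not overlap, against 7.88% of all genes. In KYZY against stress the same 2 members had an unadjusted p under 0.05, against 3.98% of all genes, and again did not overlap, against 9.19% of all genes. In KYZY against control 0 members had an unadjusted p under 0.05, against 2.74% of all genes, and 0 did not overlap, against 7.23% of all genes. DESeq2's Wald test at an adjusted p under 0.05 called 1 member, Rmnd1, in stress against control, where it called 0.158% of all genes. DESeq2 called 0 members in KYZY against stress and in KYZY against control, where it called 0.0936% and 0.0072% of all genes. For any difference among the 3 groups DESeq2 called 0 members and 0.036% of all genes. KYZY and control are both set against the same stress libraries, so a gene whose stress libraries lie apart appears in both comparisons. The members were chosen with earlier results of these data known, so their counts beside the shares of all genes are a description and not a test.

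As a group the members did not move to one side. In stress against control 5 were higher and 5 lower, and their median log2 fold change was -0.01, beside -0.03 over all genes tested, with Polg2 counted by its fitted value. In KYZY against stress 5 were higher and 5 lower, with a median of -0.04 beside 0.01 over all genes. In KYZY against control 5 were higher and 5 lower, with a median of -0.02 beside -0.00 over all genes.

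**Figure D2:**
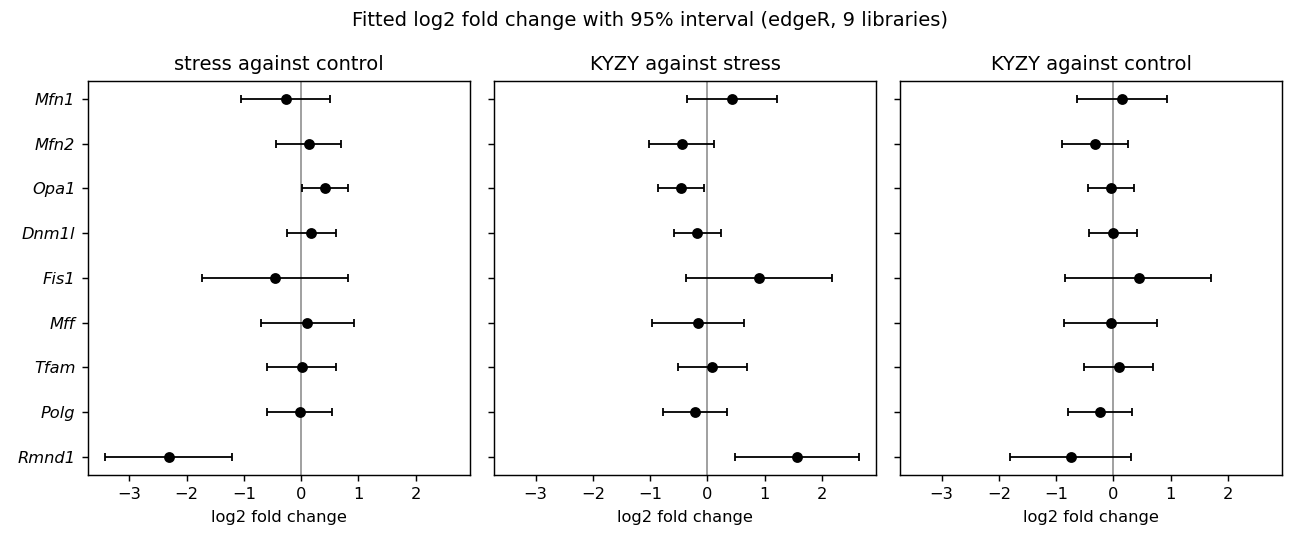
Fitted log2 fold change of 9 of the 10 genes with its 95% interval (edgeR, 9 libraries) in stress against control, KYZY against stress and KYZY against control. Polg2 is not drawn because its counts were too low for a fold. The intervals of Rmnd1 (-3.42 to -1.21) and Opa1 (0.02 to 0.82) exclude 0 in stress against control, and both genes lie on the other side of 0 in KYZY against stress.

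Rmnd1, on chromosome 10 at 4401915 to 4432388 (GRCm38, minus strand), was the member that differed most between the groups. It was at 0.932, 0.808 and 1.45 CPM in KYZY 1, 2 and 3, at 0.343, 0.218 and 0.512 CPM in stress 1, 2 and 3, and at 1.87, 2.15 and 1.32 CPM in control 1, 2 and 3. The stress libraries were the 3 lowest of the 9, also by unscaled library totals (0.234 to 0.409 CPM in stress and 0.795 or more in the others), and the KYZY and control groups overlapped, with KYZY 3 above control 3. Stress oocytes averaged 0.358 ± 0.148 CPM and control oocytes 1.78 ± 0.424 CPM (SD, n = 3 each), or 0.201-fold (95% interval 0.0935 to 0.432), which is -2.31 on the log2 scale (SE 0.497). Its unadjusted p by edgeR was 0.000842, rank 6 of 13890 genes, and the adjusted p was 1.00. DESeq2 gave a log2 fold change of -2.30 and an adjusted p of 0.0241. When the 4 high-marker libraries were left out, the edgeR log2 fold change of Rmnd1 was -2.83. That alternative drops stress 3 and control 3 from this comparison and leaves 1 library in the KYZY group.

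In KYZY against stress the log2 fold change of Rmnd1 was 1.57 (SE 0.488), or 2.97-fold (95% interval 1.40 to 6.29). The edgeR p was 0.00888 unadjusted, rank 57, and 0.935 adjusted, and the DESeq2 adjusted p was 0.50. KYZY oocytes, at 1.06 ± 0.340 CPM, had a log2 fold change of -0.74 against control with an interval of -1.80 to 0.31, which holds both no difference and a level 0.288-fold that of control. In the edgeR test for any difference among the 3 groups Rmnd1 ranked 13 with an unadjusted p of 0.00296 and an adjusted p of 1.00. In bulk RNA of this kind less RNA per oocyte and fewer oocytes that carry it cannot be told apart.

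These are few molecules. The counts of Rmnd1 were 59, 55 and 71 in KYZY libraries, 28, 25 and 33 in stress libraries and 113, 225 and 101 in control libraries. A read pair was worth about 4 units of these counts. The stress values thus stand for about 7.0, 6.2 and 8.2 read pairs and the control values for 28.2, 56.2 and 25.2. The DESeq2 test of Rmnd1 used the undivided counts, and counts divided by 4 were tested with edgeR only. All 9 values lay above the floor of 12 counts, the amount that 3 read pairs give. The marker score did not order Rmnd1: the 4 high-marker libraries spanned 0.512 to 1.45 CPM and the other 5 spanned 0.218 to 2.15 CPM. Against Tfam of the same library, the log2 ratio of counts of Rmnd1 was -1.90, -1.81 and -1.50 in KYZY, -3.31, -3.86 and -2.66 in stress and -0.60, -0.42 and -1.63 in control libraries. All 3 stress ratios were below those of the other 6 libraries, but the ratio uses the same Rmnd1 counts and is no separate evidence. Of the exon bases of Rmnd1, 186 (3.156%) are shared with a processed transcript on the other strand, Gm16153, and the kit keeps no strand, so reads there cannot be assigned.

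**Figure D3:**
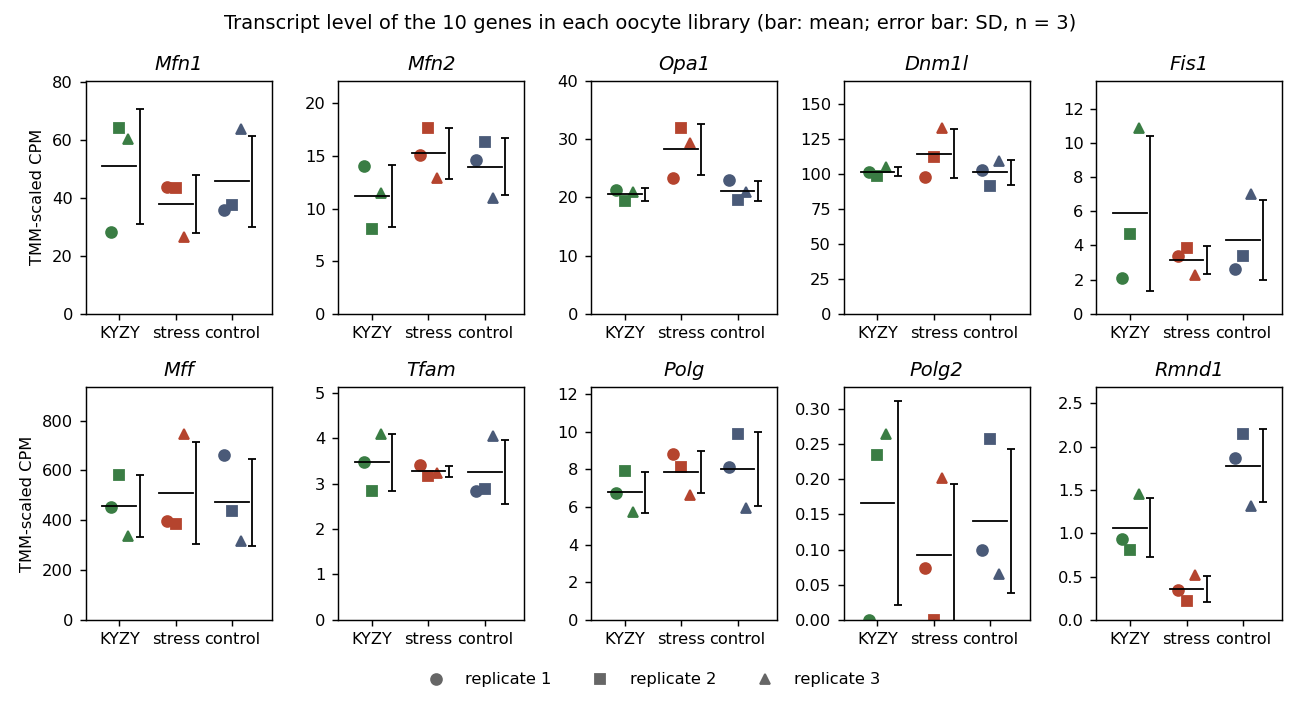
TMM-scaled CPM of each of the 10 genes in the 9 libraries, by KYZY, stress and control group, with a marker shape per replicate number, a bar at the mean and an error bar of 1 SD (n = 3, not drawn below 0). Rmnd1 is lowest in the 3 stress libraries (0.218 to 0.512 CPM), Opa1 is highest in them (23.4 to 32.0 CPM) on this scale, and the groups of the other 8 genes overlap.

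Opa1, on chromosome 16 at 29579334 to 29654884 (plus strand), showed a smaller difference, whose separation of stress from control depended on the scaling. It was at 21.2, 19.3 and 21.0 CPM in KYZY, at 23.4, 32.0 and 29.3 CPM in stress and at 22.9, 19.5 and 21.0 CPM in control libraries. The stress libraries were the 3 highest, though stress 1 exceeded control 1 by little. By unscaled library totals stress 3, at 23.4 CPM, lay below control 2, at 24.8 CPM, so the stress and control groups overlapped, and stress remained above the KYZY libraries, which reached 22.2 CPM. Stress oocytes averaged 28.2 ± 4.39 CPM and control oocytes 21.1 ± 1.72 CPM (SD, n = 3 each), which is 0.42 on the log2 scale (SE 0.181, interval 0.02 to 0.82). The edgeR p was 0.0429 unadjusted, rank 325, and 1.00 adjusted. KYZY oocytes averaged 20.5 ± 1.02 CPM, which is -0.46 against stress on the log2 scale (SE 0.181), and the edgeR p was 0.0286 unadjusted and 0.935 adjusted. KYZY and control oocytes differed by -0.04 in log2 fold change, with an interval of -0.45 to 0.36. The high-marker libraries, at 19.3 to 29.3 CPM, and the other 5, at 19.5 to 32.0 CPM, spanned the same levels.

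The mitofusins varied more between libraries of a group than between groups. Mfn1, on chromosome 3 at 32529465 to 32579239, was at 28.0, 64.2 and 60.1 CPM in KYZY, at 43.7, 43.3 and 26.4 CPM in stress and at 35.9, 37.4 and 63.8 CPM in control libraries. The 3 groups overlapped, and the highest values were those of KYZY 2, KYZY 3 and control 3, which are 3 of the 4 high-marker libraries, while the fourth, stress 3, had the lowest value of all. In stress against control the log2 fold change of Mfn1 was -0.27 (SE 0.354), and it was 0.43 (SE 0.354) in KYZY against stress and 0.15 (SE 0.354) in KYZY against control. Without the 4 high-marker libraries these 3 values were 0.26, -0.62 and -0.36, so the direction depended on them.

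Mfn2, on chromosome 4 at 147873599 to 147904704, was at 14.0, 8.05 and 11.5 CPM in KYZY, at 15.1, 17.7 and 12.9 CPM in stress and at 14.6, 16.3 and 11.0 CPM in control libraries. It was at 8.05 to 12.9 CPM in the 4 high-marker libraries and at 14.0 to 17.7 CPM in the other 5, with no overlap between these sets. By unscaled library totals they overlapped, at 12.2 CPM in KYZY 3 of the 4 and 12.0 CPM in KYZY 1 of the other 5. The share of all genes without overlap between these sets was not counted, so the separation is not shown to be particular to Mfn2. The log2 fold change of Mfn2 was 0.13 (SE 0.255) for stress against control, -0.45 (SE 0.256) in KYZY against stress and -0.32 (SE 0.256) in KYZY against control. The count ratio of Mfn2 to Mfn1 was 0.501, 0.125 and 0.192 in KYZY, 0.346, 0.409 and 0.491 in stress and 0.408, 0.436 and 0.173 in control libraries. The 3 libraries with a ratio under 0.2 were KYZY 2, KYZY 3 and control 3. Whether RNA of cumulus or granulosa cells took part in these values was not tested.

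**Figure D4:**
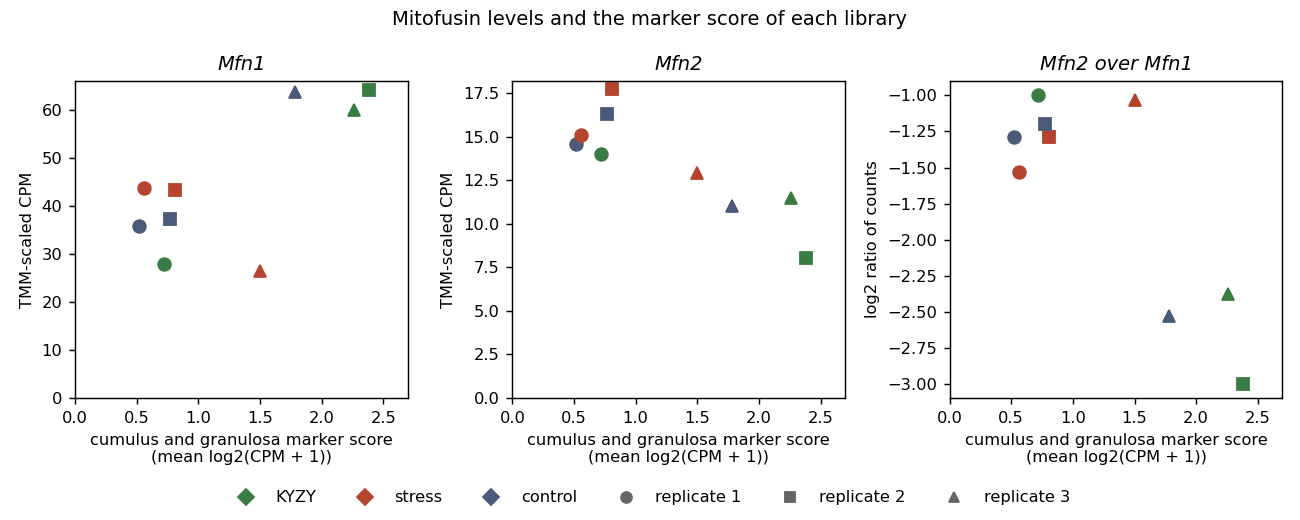
Mfn1 and Mfn2 in TMM-scaled CPM, and the log2 ratio of Mfn2 to Mfn1 counts, against the cumulus and granulosa marker score of each library (mean log2(CPM + 1)), with colours for groups and shapes for replicate numbers. On the TMM scale Mfn2 is at 8.05 to 12.9 CPM in the 4 libraries with a score of 1.50 or above and at 14.0 to 17.7 CPM in the 5 with a score up to 0.81.

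Mff and Dnm1l of the division machinery were the most abundant members, and Dnm1l was among the most even. Dnm1l, on chromosome 16 at 16312230 to 16358959, was at 101, 98.3 and 105 CPM in KYZY, at 98.0, 112 and 133 CPM in stress and at 103, 91.3 and 109 CPM in control libraries. Its groups overlapped, and the highest library exceeded the lowest 1.46-fold. Stress differed from control by 0.18 in log2 fold change (interval -0.24 to 0.60, or 0.846-fold to 1.51-fold), KYZY from stress by -0.18 and KYZY from control by 0.00. The count ratio of Dnm1l to Opa1 was 4.75, 5.09 and 4.98 in KYZY, 4.19, 3.50 and 4.54 in stress and 4.49, 4.69 and 5.20 in control libraries. Stress 3 lay above control 1, so the ratio of stress and control libraries overlapped. The ratio of all KYZY libraries lay above that of all stress libraries. It uses the same Opa1 counts and is no separate evidence, and the share of gene ratios without overlap was not counted.

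Mff, the receptor, on chromosome 1 at 82724890 to 82752394, was at 451, 582 and 336 CPM in KYZY, at 397, 386 and 747 CPM in stress and at 663, 435 and 318 CPM in control libraries. The groups overlapped over most of their range. Stress differed from control by 0.11 in log2 fold change (SE 0.366) and KYZY from stress by -0.16 (SE 0.366). Fis1, on chromosome 5 at 136953275 to 136966234, was at 2.10, 4.65 and 10.9 CPM in KYZY, at 3.35, 3.85 and 2.25 CPM in stress and at 2.61, 3.39 and 6.99 CPM in control libraries. Its 3 highest values were in KYZY 3, control 3 and KYZY 2, and its highest library exceeded the lowest 5.18-fold. The log2 fold change of Fis1 was -0.46 (SE 0.570) in stress against control and 0.90 (SE 0.573) in KYZY against stress, and without the 4 high-marker libraries these were 0.27 and -0.76. Without KYZY 3 alone the value was 0.12 in KYZY against stress and -0.35 in KYZY against control, where it was 0.44 (SE 0.569) with all 9 libraries. KYZY 3 and control 3, the highest for Fis1, also had the highest stroma, endothelium and oviduct scores. The role of other cells in the Fis1 values was not tested. Fis1 counts were 0.00301 to 0.0323 of Mff counts in the 9 libraries, and Mff also exceeded Fis1 per kb in each of them.

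Tfam and Polg, which hold and copy the mitochondrial genome, stood near the middle of the genes tested, with Tfam at percentile 46.9 and Polg at 59.2 of mean CPM. Tfam, on chromosome 10 at 71225464 to 71238280, was at 3.47, 2.83 and 4.10 CPM in KYZY, at 3.41, 3.16 and 3.24 CPM in stress and at 2.83, 2.88 and 4.06 CPM in control libraries. Its groups overlapped, and on the TMM scale its highest library exceeded the lowest 1.45-fold, the smallest such ratio of the 10 genes. Stress differed from control by 0.01 in log2 fold change, with an interval of -0.60 to 0.61, or 0.662-fold to 1.53-fold. Polg, on chromosome 7 at 79446231 to 79466362, was at 6.73, 7.91 and 5.71 CPM in KYZY, at 8.84, 8.12 and 6.64 CPM in stress and at 8.15, 9.90 and 5.96 CPM in control libraries. The groups overlapped, and stress differed from control by -0.02 in log2 fold change (interval -0.59 to 0.54), KYZY from stress by -0.21 and KYZY from control by -0.24. Polg shares 921 exon bases (8.574%) with Fanci on the other strand, a gene of DNA crosslink repair that was at 7.43 to 15.9 CPM, so the level of Polg may hold reads of Fanci.

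Polg2, on chromosome 11 at 106768253 to 106779537, lay at the limit of detection. Its counts were 0, 16 and 13 in KYZY, 6, 0 and 13 in stress and 6, 27 and 5 in control libraries, and 5 of the 9 values were under the floor of 12 counts. No fold is given for it, and a difference between groups was not detectable at this depth. The transcript of the accessory subunit was thus far scarcer than that of the catalytic subunit: Polg2 averaged 0.0306 and Polg 0.703 CPM per kb.

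Other genes of the same pathways were described from wider lists, by counts and medians beside those of all genes. Of 37 tested genes of fusion, fission and inner membrane shape other than the members, 16 were higher and 21 lower in stress than in control, and the median log2 fold change was -0.04, beside -0.03 over all genes. In KYZY against stress 16 were higher and 21 lower, with a median of -0.01. Bax, the pore-forming apoptosis protein of the outer membrane, was at 3.41 ± 1.15 CPM in stress and 5.52 ± 1.53 CPM in control oocytes, without overlap. Spg7, an inner membrane protease subunit, was at 1.13 ± 0.851 CPM in KYZY and 0.357 ± 0.108 CPM in stress oocytes, with overlap. Mtfp1, a fission protein of the inner membrane, was at 0 in all stress libraries and averaged 0.237 CPM in KYZY and 0.0825 CPM in control oocytes, near the floor of 0.105 to 0.245 CPM. Of 11 genes of mitochondrial transport, 3 were higher and 8 lower in stress than in control, with a median of -0.33, and 5 were higher and 6 lower in KYZY than in stress. Trak2, an adaptor of the kinesin motor, was at 3.34 ± 0.142 CPM in stress and 4.21 ± 0.573 CPM in control oocytes, without overlap. Kif5b, the kinesin heavy chain, was at 36.3 ± 13.5 and 65.1 ± 69.6 CPM in stress and control oocytes, a spread that holds the difference. Armcx1 and Armcx2, outer membrane proteins tied to mitochondrial movement in neurons, averaged 0.566 and 0.722 CPM in KYZY oocytes and 0.0349 and 0.119 CPM in stress oocytes, the stress levels lying near or under the floor.

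The list closest to Tfam, Polg and Polg2 held 46 tested genes of replication, transcription and nucleoids. In stress against control 17 were higher and 29 lower, with a median of -0.06, and in KYZY against stress 24 were higher and 22 lower, with a median of 0.03. Mgme1, an exonuclease that processes ends during mitochondrial DNA replication, was at 5.50 ± 0.507 CPM in KYZY, 9.33 ± 1.38 CPM in stress and 6.18 ± 0.574 CPM in control oocytes (SD, n = 3 each). Its stress libraries lay above those of both other groups, with a log2 fold change of 0.59 (SE 0.215) against control and of -0.76 (SE 0.216) for KYZY against stress, and edgeR's adjusted p was 1.00 and 0.935. Lonp1, a matrix protease known to degrade Tfam, was at 22.4 ± 4.56 CPM in KYZY and 14.3 ± 2.63 CPM in stress oocytes, with overlap. Clpp, another matrix protease, was at 0.608 ± 0.152 CPM in stress and 1.48 ± 1.01 CPM in control oocytes, without overlap. For genes encoded by the mitochondrial genome itself 28 symbols were listed, with older and newer symbols of 1 gene both counted. None was among the genes of the tables, so the product of these factors was not analysed here.

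Beside Rmnd1, 30 tested genes of mitochondrial translation factors and anchors were 13 higher and 17 lower in stress than in control, with a median of -0.08, and 12 higher and 18 lower in KYZY than in stress, with a median of -0.10. Mto1, which modifies mitochondrial tRNA, was at 2.97 ± 0.882 CPM in KYZY, 1.52 ± 0.685 CPM in stress and 2.82 ± 0.332 CPM in control oocytes, and its log2 difference was -0.89 (SE 0.411) in stress against control and 0.96 (SE 0.412) in KYZY against stress. Gatb, a subunit of the enzyme that completes glutamine tRNA, was at 0.902 ± 0.350 CPM in KYZY and 0.268 ± 0.201 CPM in stress oocytes, without overlap. Trmt10c, a subunit of mitochondrial RNase P, was at 8.42 ± 2.31 CPM in stress and 12.2 ± 1.21 CPM in control oocytes, with overlap. Across the 6 lists of this kind, 0 genes passed the edgeR or the DESeq2 test in any comparison. An unadjusted edgeR p under 0.05 was met by 1, 4 and 1 of the 46 genes of the genome list in stress against control, KYZY against stress and KYZY against control, beside 2.69%, 3.98% and 2.74% of all genes. It was met by 1 of 30 translation factors in KYZY against stress, by 1 of 17 biogenesis regulators in KYZY against stress and 1 in KYZY against control, and by 1 of 14 mitophagy genes in stress against control.

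Of 17 nuclear regulators of mitochondrial biogenesis, 5 were higher and 12 lower in stress than in control, with a median of -0.14, and 5 were higher and 12 lower in KYZY than in stress, with a median of -0.11. Yy1, a zinc finger transcription factor, was at 0.785 ± 0.220 CPM in KYZY, 0.331 ± 0.116 CPM in stress and 0.814 ± 0.391 CPM in control oocytes, and its stress libraries lay below those of both other groups. Tfeb, a regulator of lysosomal genes, was at 0 in all stress libraries and averaged 0.144 CPM in KYZY and 0.104 CPM in control oocytes, near the floor. Of 14 mitophagy receptors and kinases, 9 were higher and 5 lower in stress than in control, with a median of 0.06, and 7 were higher and 7 lower in KYZY than in stress, with a median of -0.01. Optn, a mitophagy receptor, was at 8.87 ± 1.10 CPM in KYZY, 13.2 ± 2.48 CPM in stress and 7.64 ± 3.12 CPM in control oocytes, with stress above both other groups. Bcl2l13, another receptor, was at 95.4 ± 6.67 CPM in stress and 77.8 ± 14.5 CPM in control oocytes, with overlap, and Sqstm1, the autophagy adaptor p62, was at 39.7 ± 19.1 CPM in KYZY and 23.7 ± 2.38 CPM in stress oocytes, with overlap.

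The lists are set beside all genes in the same way for groups that did not overlap. Overlap in the lists was read on the TMM scale only. The share of all genes whose stress libraries lay apart from both other groups, as for Mgme1, Yy1 and Optn, was not counted. In stress against control, where 7.88% of all genes did not overlap, 1 gene of the fusion and fission list was higher and 4 lower without overlap, of 37. Of the transport genes 0 were higher and 1 lower, of the genome list 2 and 1, of the translation factors 0 and 3, of the regulators 1 and 1 and of the mitophagy genes 1 and 0. In KYZY against stress, where 9.19% of all genes did not overlap, these counts were 2 and 1, 1 and 0, 1 and 2, 1 and 2, 1 and 0, and 0 and 1 in the same order of lists. In KYZY against control the median log2 fold change was -0.06 for the fusion and fission list (13 higher, 24 lower), 0.18 for transport (7 higher, 4 lower) and -0.04 for the genome list (22 higher, 24 lower). It was -0.14 for translation factors (10 higher, 20 lower), -0.18 for biogenesis regulators (4 higher, 13 lower) and 0.18 for mitophagy genes (11 higher, 3 lower), beside -0.00 over all genes.

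The genes whose log2(CPM + 0.5) followed each member most closely over the 9 libraries were looked up among 5114 genes with a mean of at least 10 CPM. For Rmnd1 these were Nfe2l1 (Pearson r = 0.896) and Aagab (r = 0.884), and for Dnm1l they were Lrrfip2 (r = 0.942) and Sh3yl1 (r = 0.913). For Mfn1 they were Ybx1 (r = 0.981) and Crk (r = 0.960), and for Tfam they were Paip2b (r = 0.925) and Stk11 (r = 0.924). The 9 points of each coefficient share their libraries, depth and marker score, the best of many genes is high by its choice, and the values are a description only.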

How the data were processed

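RNA was measured in 9 libraries of metaphase II oocytes made with SMART-Seq v4 and Tn5, per the labels' protocols, without molecular identifiers or strand. The authors deposited 1 table of expected counts per library, whole-number estimated counts per gene that are not normalized; the unit was read from the values, since the tables name none. The submitters' processing notes name bcl2fastq 2.20, Trim Galore, HISAT2, StringTie, DESeq2 and the builds GRCm38 and mm10, without settings. Values of 4 were more frequent than their neighbours (in control 1, 401 genes at 4, 53 at 3 and 224 at 5), so a read pair was taken as about 4 units and the floor as 3 read pairs, 12 counts or 0.105 to 0.245 CPM. The floor covers counting error only.

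The counts went into edgeR 4.0.16 (R 4.3.3, limma 3.58.1). Its filterByExpr, with 10 as the minimum count and 15 as the minimum total, passed 13890 genes and removed 10846. TMM scaling and a quasi-likelihood model with 1 mean per group and robust spread were fitted to all 9 libraries (6 residual degrees of freedom), and 2-sided F tests had Benjamini-Hochberg adjustment over all genes tested, at a threshold of 0.05. The common biological coefficient of variation was 0.611. Intervals are 95% intervals from the moderated fit. DESeq2 1.42.0 was run as an alternative, beside other scaling, no filter, counts divided by 4, a replicate block, leaving out each library, leaving out the 4 libraries of highest marker score, and only the groups compared. The steps were tested on simulated data.

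The members and lists were chosen with earlier results of these data known. In each wider list, the genes named were those of smallest p in stress against control and in KYZY against stress. Positions and exon lengths come from GENCODE M21 (GRCm38), which matched 24204 of 24736 symbols, and the sequences from RefSeq on GRCm38.p6. Of the libraries 0 held identical values, and none was left out.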

Additional observations from a re-analysis of the deposited data

How the results depend on the processing

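Rmnd1 and Opa1 kept their direction under all 16 alternatives in stress against control (log2 fold change -2.83 to -2.06 and 0.31 to 0.53, adjusted p 0.0241 to 1.00 and 0.69 to 1.00) and in KYZY against stress (1.31 to 1.91 and -0.56 to -0.34, adjusted p 0.368 to 1.00 and 0.578 to 1.00). Members called in stress against control went to 1, Rmnd1, by DESeq2, which called 0.158% of all genes there. They were 0 in the other alternatives that left more than 1 library in each group. The fit without the 4 libraries of highest marker score left 1 library in KYZY, so its calls are not counted. Of 432 values, 37 changed sign, 24 of them on leaving out 1 library, and 0 of the 37 had an adjusted p under 0.05. The cause was not tested.

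Genes called, 0 by edgeR on 9 libraries, came to 22, 13 and 1 by DESeq2 in stress against control, KYZY against stress and KYZY against control, and to 5 for any difference. Leaving out 1 library gave 0 to 2, 0 to 1, 0 to 3 and 0 to 4, with every count above 0 coming from the fit without control 3. Leaving out the 4 high-marker libraries gave 148, 115, 119 and 211, with 1 library left in KYZY, assumed to vary like the others. Only the 2 groups compared gave 1 gene in KYZY against stress.

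Without the 4 high-marker libraries the log2 fold change of Mfn1, Fis1 and Mff was 0.26, 0.27 and -0.48 in stress against control, that of Mfn1, Fis1 and Mff was -0.62, -0.76 and 0.22 in KYZY against stress, and that of Mfn1, Opa1 and Fis1 was -0.36, 0.03 and -0.49 in KYZY against control. Polg2 is given no fold under any alternative. Tfam in stress against control was -0.00 with no filter and -0.01 with counts divided by 4. Opa1 in KYZY against control was 0.00 with DESeq2, by its size factors and by its test.

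Leaving out 1 library gave these ranges in stress against control: Mfn1 -0.42 to 0.05, Mfn2 -0.01 to 0.24, Fis1 -0.72 to 0.08, Mff -0.27 to 0.44, Tfam -0.09 to 0.20 and Polg -0.19 to 0.15. In KYZY against stress Fis1 ranged from 0.12, without KYZY 3, to 1.29, Mff ranged from -0.38 to 0.22 and Tfam from -0.03 to 0.21. In KYZY against control Mfn1 ranged from -0.06 to 0.50, Opa1 from -0.09 to 0.02, Dnm1l from -0.06 to 0.09, Fis1 from -0.35 to 1.00, Mff from -0.26 to 0.27 and Tfam from -0.04 to 0.31.

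Same-numbered libraries correlated at -0.196 to 0.634 over 9 pairs, 7 of them over 0.1, and 7 of 9 libraries correlated best with their own number, a hint from the data and not the design. With the replicate block 0 genes and 0 members were called in each comparison, and Rmnd1 in stress against control was -2.41. All 30 group levels stayed within 1 SD when scaled by the library total, although the non-overlap of Opa1 between stress and control was then lost, and 8 of 10 levels per kb moved with the length of the longest protein-coding transcript, an alternative chosen after seeing the data.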
